A study of Drosophila melanogaster with 2 samples.

Results

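The regions described here are the intronic Oc-GFP peaks near a start site. They are peaks of the depositors' optimal IDR list (IDR stands for irreproducible discovery rate, a measure of reproducibility between replicates). Their summits, the base of highest signal in a peak, lay inside an annotated gene but in no exon, more than 500 bp from any transcription start site and under 5000 bp from the nearest start of a protein-coding gene. By this rule 1420 of 5844 IDR peaks were members (24.3%, 95% Wilson interval 23.2 to 25.4), called near intronic peaks below. The study measured binding of the factor Oc by ChIP-seq, the sequencing of DNA recovered with an antibody from sheared chromatin. Chromatin came from whole Drosophila melanogaster embryos, and the 2 libraries (biological replicates 2 and 3 in the labels) make up 1 group. The embryos were 2 to 14 h old by the source name, while the age field of the labels holds 45336 hours. They belonged to a transgenic line in which GFP is fused to the C terminus of Oc, and an antibody to GFP was used for the precipitation. Sex was not collected, the embryos span many stages and all tissues, both replicate lists share a control alignment, and the labels do not say how much of the oc locus the transgene carries. With a single group of 2 libraries no test over samples was possible, and no p-value is given. Intervals cover counting error over peaks only.

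Oc, also called Orthodenticle, is a homeodomain factor needed to form the anterior head and brain of the embryo and later used in photoreceptors. Its homeodomain carries a lysine at the position that sets the preference for the core TAATCC, as in Bicoid and the mammalian OTX and CRX factors. Enhancers of fly developmental genes commonly lie within introns, often in the long intron that follows the start site, and can act on the gene that holds them or on a neighbour.

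The sequences below show what lay under the summits. Each is 101 bases of the dm6 genome (RefSeq assembly release 6), read 5′ to 3′ on the plus strand with the summit in the middle. The opening 8 are the members on 2L, 3L, 3R or X with the highest signal and a TAATCC core within 50 bp of the summit, and bon, inaE and sws are the next on these arms with more than 1 core. Capitals mark TAATCC or GGATTA, the same core on the other strand.
aos (chr3L:16480497-16480597): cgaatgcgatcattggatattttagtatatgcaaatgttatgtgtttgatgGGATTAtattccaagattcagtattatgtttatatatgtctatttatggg
CG4496 (chr2L:7188605-7188705): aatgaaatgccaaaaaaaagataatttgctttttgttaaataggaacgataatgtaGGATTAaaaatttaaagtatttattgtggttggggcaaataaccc
nkd (chr3L:19041873-19041973): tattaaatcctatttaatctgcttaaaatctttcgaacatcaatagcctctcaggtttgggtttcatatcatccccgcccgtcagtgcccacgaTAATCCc
Ten-m (chr3L:22403790-22403890): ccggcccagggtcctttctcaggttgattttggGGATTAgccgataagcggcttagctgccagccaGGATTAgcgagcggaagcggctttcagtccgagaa
Cyp4ac1 (chr2L:5260417-5260517): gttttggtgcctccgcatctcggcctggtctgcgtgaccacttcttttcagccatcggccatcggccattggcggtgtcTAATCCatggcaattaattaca
Ten-m (chr3L:22402822-22402922): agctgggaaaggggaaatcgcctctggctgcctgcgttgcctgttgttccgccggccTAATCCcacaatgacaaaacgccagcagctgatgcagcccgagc
mol (chr2L:14996012-14996112): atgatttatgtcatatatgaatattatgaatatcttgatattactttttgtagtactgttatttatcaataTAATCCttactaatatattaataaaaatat
Moe (chrX:8896224-8896324): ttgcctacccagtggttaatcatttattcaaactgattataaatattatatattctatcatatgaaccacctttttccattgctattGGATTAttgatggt
bon (chr3R:20597719-20597819): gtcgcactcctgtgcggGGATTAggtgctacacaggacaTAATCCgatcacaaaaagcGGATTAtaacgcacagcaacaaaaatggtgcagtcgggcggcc
inaE (chrX:13784419-13784519): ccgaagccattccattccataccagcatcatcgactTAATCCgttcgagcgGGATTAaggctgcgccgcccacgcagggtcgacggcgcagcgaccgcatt
sws (chrX:7967231-7967331): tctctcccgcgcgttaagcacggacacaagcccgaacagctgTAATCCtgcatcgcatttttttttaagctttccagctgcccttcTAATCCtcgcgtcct
The next 3 are the members with the highest signal of all, none of which held the core. Here the capitals mark the leftmost of the longest runs of A and T.
CG11050 (chr2L:6612658-6612758): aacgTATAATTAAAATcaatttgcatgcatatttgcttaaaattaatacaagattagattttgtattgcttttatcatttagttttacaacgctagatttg
cbt (chr2L:481036-481136): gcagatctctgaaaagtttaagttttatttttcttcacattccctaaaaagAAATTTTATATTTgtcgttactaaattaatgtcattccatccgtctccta
Lk6 (chr3R:11761009-11761109): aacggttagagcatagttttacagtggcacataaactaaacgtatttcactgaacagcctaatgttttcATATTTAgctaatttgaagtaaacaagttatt

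The printed peaks with cores were chosen for their signal, so their values are a description. Members on 2R with a core were not printed, among them peaks of dve (698), CG15080 (586) and sli (538), and one of magu (312) with 2 cores. The signal is the authors' value per peak, on a scale that the sources used here do not give. The aos peak had a signal of 963 in the IDR list, 499 in replicate 2 and 449 in replicate 3. Its core began at the base next to the summit, 3103 bp downstream of the start of aos (FBgn0004569), in its first intron. This gene encodes Argos, a secreted inhibitor of the EGF receptor. The CG4496 peak had 925 in the IDR list, 527 in replicate 2 and 405 in replicate 3. The nkd peak had 783, 442 and 344 in the same order, and its core lay at the edge of the window, 46.5 bp from the summit. The product of nkd (FBgn0002945), Naked cuticle, is a feedback inhibitor of Wnt signalling, and both of its near intronic peaks held a core. Ten-m (FBgn0004449), which encodes a teneurin of the cell surface, had a pair of peaks with cores in its first intron, 1 of them with 2 cores. Their signals were 672 (342 in replicate 2 and 323 in replicate 3) and 552 (307 and 234). The peak assigned to Cyp4ac1 (FBgn0031693), a cytochrome P450 gene, lay in the first intron of tkv, which encodes a type I receptor for Dpp. It had a signal of 582, 317 in replicate 2 and 272 in replicate 3. The lowest of the 8 were those of mol (536) and Moe (512), the gene of the membrane-to-actin linker Moesin. The bon window had 3 cores, the most of any member, at a signal of 465 (275 in replicate 2 and 184 in replicate 3), and bon (FBgn0023097) encodes Bonus, a nuclear cofactor of the TIF1 family. inaE, a lipase gene of phototransduction, had 2 cores and a signal of 326. sws, whose product Swiss cheese is a phospholipase of neurons, had 2 cores and 233.

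The core TAATCC was found within 50 bp of the summit in 124 of the 1420 near intronic peaks (8.73%, 7.37 to 10.3), against 8.30% of all IDR peaks, so the share of members was near that of the whole list. Flanking windows 500 bp away on either side held it in 3.10%, a log2 ratio of summit to flank of 1.49, and 3.64% of windows on a regular grid over all sequence that meets the positional rule held it. The variant TAAGCC was found in 136 members (9.58%, 8.15 to 11.2), against 8.69% of all IDR peaks, 4.61% of the flanks and 4.37% of the grid. Either core was present in 247 members (17.4%), and the other 1173 had neither within 50 bp. The share of all IDR peaks with either core is not given here. Of the 124 members with TAATCC, 118 had 1 core, 5 had 2 and bon had 3.

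**Figure D1:**
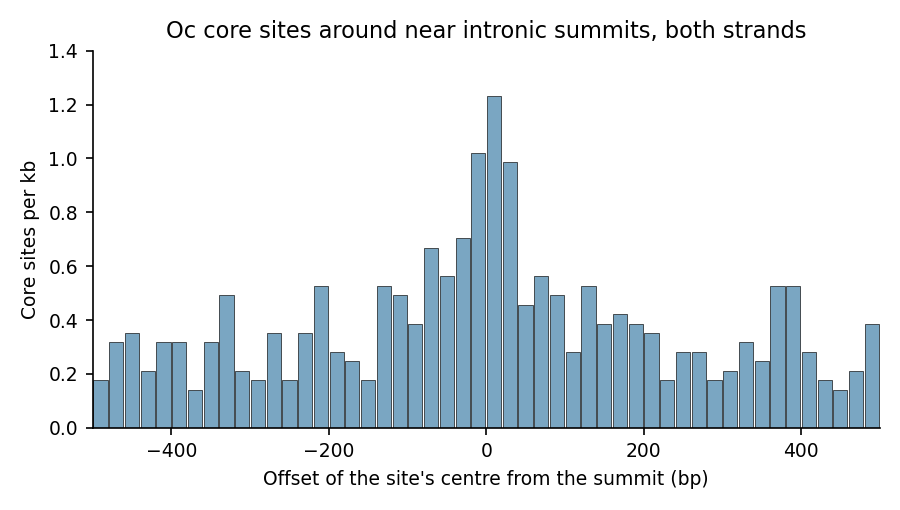
Density of TAATCC cores (sites per kb of sequence, both strands) around the 1420 near intronic summits, in bins of 20 bp from 500 bp left to 500 bp right of the summit. The bars rise to 1.23 sites per kb in the bin just right of the summit.

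Cores were densest at the summit itself. Within 40 bp there were 112 cores, or 0.986 per kb, and at 200 to 500 bp there were 0.291 per kb. Of 2078 6-letter words counted on both strands with their reverse complement, TAATCC had the highest ratio of summit to flank windows among the members, and TAAGCC ranked 4. Between them came CTAAGC with a log2 ratio of 1.19, which overlaps TAAGCC by 5 letters, and CATAGG with 1.14. CTTAAG ranked 5 at a log2 ratio of 1.00. TAATCC also ranked 1 over all IDR peaks (log2 ratio 1.28) and among intronic peaks at or beyond 5000 bp (1.51). At promoters it ranked 75 (0.63). Of 16 words and motifs chosen from known factors, TAATCC and TAAGCC had the highest ratios of summit to flank. The homeodomain word TAATTA was in 9.30% of summit windows and 7.29% of flanks, and in 7.68% of all IDR peaks. The paired homeodomain word made of TAAT, any 3 bases and ATTA was in 24 members (1.69%, 1.14 to 2.5) against 0.915% of flanks. Its share over all IDR peaks, 1.28%, lay within that interval. GAGAGAG, bound by the GAGA factor, was in 30 members (2.11%) against 3.03% of flanks and 2.89% of all IDR peaks. TATCGATA, bound by DREF at core promoters, and GGTCACAC, an element of promoters, were in 1 member each (0.0704%, against 0.282 and 0.176% of flanks). They were in 0.753 and 0.702% of all IDR peaks, and in 37 and 30 of the 1993 IDR peaks at promoters. These words are counted on both strands and describe letters in the window, not bound sites.

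The strength of the near intronic peaks spanned more than an order of magnitude. Signal ran from 146 to 2684 with a median of 225 (quartiles 177 and 326), and 119 of the 500 strongest IDR peaks were members (23.8%, close to their 24.3% of the list). The median was 225 for IDR peaks at promoters, 204 for intronic peaks at or beyond 5000 bp and 217 for all. The median width was 400 bp.

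Members were found again in the replicate lists. A summit of replicate 2 lay within 100 bp of 1377 members and one of replicate 3 within 100 bp of 1373. Both replicates held 1333 (93.9%, 92.5 to 95), against 93.6% of all IDR peaks. Since the IDR list was itself drawn from the replicates, this share describes the list and is no independent check. The members without a summit in either replicate list were single peaks near Mcr, CG10479 and CG43675, with signals of 366, 193 and 291. Among the 1333, the deposited signal was 1.14-fold higher in replicate 2 than in replicate 3 at the median (log2 ratio 0.19, SD 0.48), and 1246 of them (93.5%) differed by less than 1 log2 unit. Over these 1333 peaks, which share a control alignment, the Spearman correlation between replicates was 0.722. The widest difference was at a peak of Rgl, with 166 in replicate 2 and 24.1 in replicate 3, and on the other side at a peak of PpN58A, with 34.0 and 115.1. In all, 1023 members (72.0%) were among the 5844 strongest peaks of both replicate lists, against 68.9% of all IDR peaks.

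**Figure D2:**
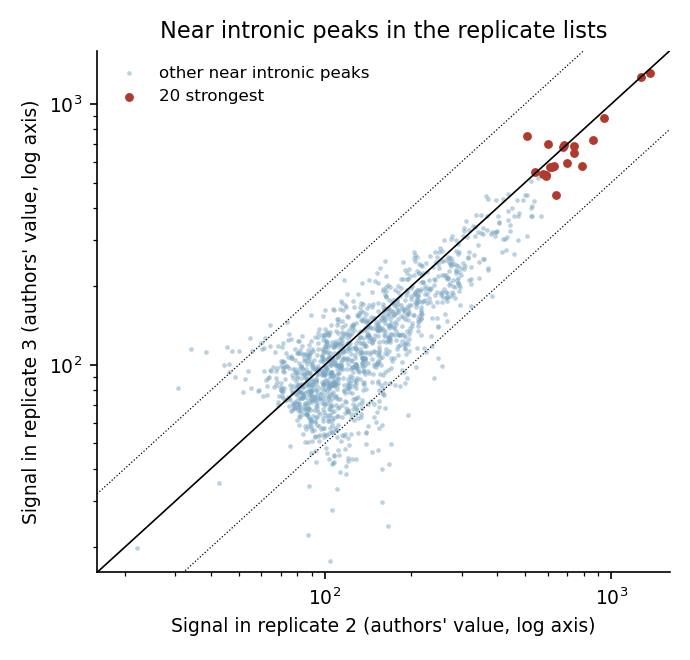
Signal of the 1333 near intronic peaks found in both replicates, replicate 2 on the x axis and replicate 3 on the y axis, both on log axes in the authors' unit. The solid line marks equality and the dotted lines 1 log2 unit to either side, and the 20 strongest peaks (red) lie between the dotted lines.

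The strongest near intronic peaks lay at genes of varied function and ranked high in both replicates. The top peak, with a summit at base 6612708 of 2L, was in a 140-bp intron of CG11050 (FBgn0031836), a gene whose product is not described here. Its signal was 2684 in the IDR list, 1369 in replicate 2 (rank 3) and 1310 in replicate 3 (rank 2). The next, 1398 bp upstream of cbt (FBgn0043364), had 2537 in the IDR list, 1273 in replicate 2 and 1266 in replicate 3, rank 5 in both. It lay in the first intron of ush (FBgn0003963), which encodes U-shaped, a cofactor of GATA factors, while cbt encodes the zinc finger factor Cabut. Lk6, a kinase gene whose product phosphorylates the translation factor eIF4E, had 1826, 940 and 881 in the same order. Trl (FBgn0013263), the gene of the GAGA factor, had 1439, 743 and 691. The lowest rank among the 20 strongest was 122 in replicate 2 and 108 in replicate 3. The peak with rank 122 was that of Tlk, the Tousled-like kinase gene, with 1280 in the IDR list, 510 in replicate 2 and 751 in replicate 3.

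The rest of the 20 were near CG32772, CG12769, CG9663 (a pair of peaks 199 bp apart), chif, HmgZ, Raf, Reph, LPCAT, CG9837, cno, Btk, CG31635, trx and NFAT, with signals from 1109 to 1589. Among these, Raf encodes the kinase below Ras, cno the junction protein Canoe, Btk a Tec-family tyrosine kinase, trx the histone methyltransferase Trithorax and NFAT a Rel-homology factor. Of the 20 peaks, 17 were in a first intron, 13 in an intron that lies in the 5′ UTR in every transcript that has it, and 8 upstream of the nearest coding start. None of the 20 held TAATCC within 50 bp, where the share over all members was 8.73%, so with 20 peaks the count is near that share. Their windows had a mean GC of 28.9% (20.8 to 45.5), against 40.9% in their flanks.

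GC at the summit was lowest in the strongest members, and its correlation with signal over all members was weak and negative. From the weakest to the strongest quartile group of members (355 each), mean GC of the summit windows was 39.96, 38.8, 38.8 and 34.8%, and it was 31.7% in the 100 strongest, whose flanks had 41.0%. The Spearman correlation of signal with GC was -0.18 over the 1420 members and -0.23 over all 5844 IDR peaks, as a description over peaks of the same libraries. The share with TAATCC was 7.32, 6.76, 11.5 and 9.30% from the weakest to the strongest group, and 7% (3.43 to 13.7) in the 100 strongest. The intervals of these shares overlap, so no order of the groups can be read from them. The share found in both replicates was 87.6% in the weakest group and 98.3% in the strongest. In the 100 strongest, the word with the highest ratio of summit to flank was TCTTAA, in 15 windows against 2.5% of flanks. It was picked as the top of 334 ranked words in 100 windows of low GC. Its share over all members is not given here. Members with TAATCC had a median signal of 252 (quartiles 185 and 333) and the other 1296 a median of 223 (177 and 324), so the distributions overlapped widely. The part of base composition in the signal was not tested.

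**Figure D3:**
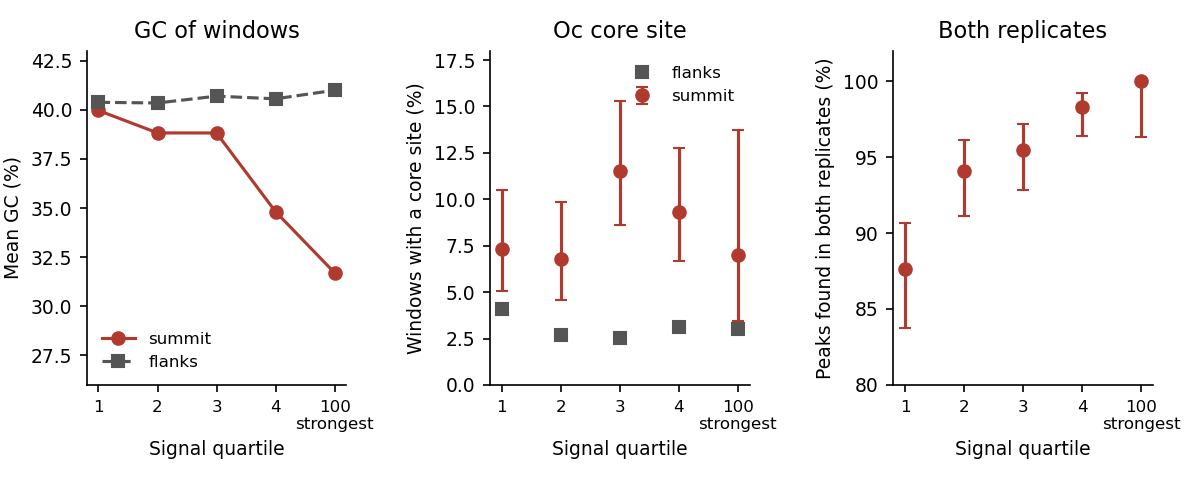
Near intronic peaks by quartile group of signal (1 weakest, 4 strongest, 355 peaks each) and for the 100 strongest, which are a subset of group 4. Left, mean GC (%) of 101-bp summit windows (circles) and flanks (squares); middle, share (%) of windows with TAATCC; right, share (%) found in both replicates, with 95% Wilson intervals where bars are drawn. GC at the summit falls from 39.96 to 34.8% over the groups while that of the flanks stays between 40.3 and 40.7%.

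The members crowded toward the start site. The rule allows 22.1 Mb of sequence, and over it the members numbered 64.3 per Mb. Intronic IDR peaks at or beyond 5000 bp numbered 33.4 per Mb of the sequence of their class, intergenic ones under 5000 bp 46.5 and those at promoters 109. Within the members, density was 81.9 per Mb (exact Poisson interval 73.2 to 91.5) at 500 to 1000 bp from the coding start, 74.5 at 1000 to 1500 bp and 52.0 (43.1 to 62.3) at 2500 to 3000 bp. At 4500 to 5000 bp it was 54.3 (43.3 to 67.1), so it fell over the nearest 2500 bp and not visibly beyond. The median distance was 1898 bp (quartiles 1070 and 3144). Median signal per 500-bp bin lay between 199 and 243, and the share with TAATCC between 4.67 and 12.4% with overlapping intervals. At the inner limit, peaks of CG5854 at 501 bp (signal 289) and Dif at 503 bp from the nearest start (226) were members, and peaks at 500 bp near cnc (221) and CG43658 (210) were not. At the outer limit, peaks of Pdk (248) and Ten-m (552) at 4991 bp were members, and peaks at 5023 bp near nuf (206) and at 5031 bp near mop (215) were not. Neighbours across each limit had signals of the same order.

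**Figure D4:**
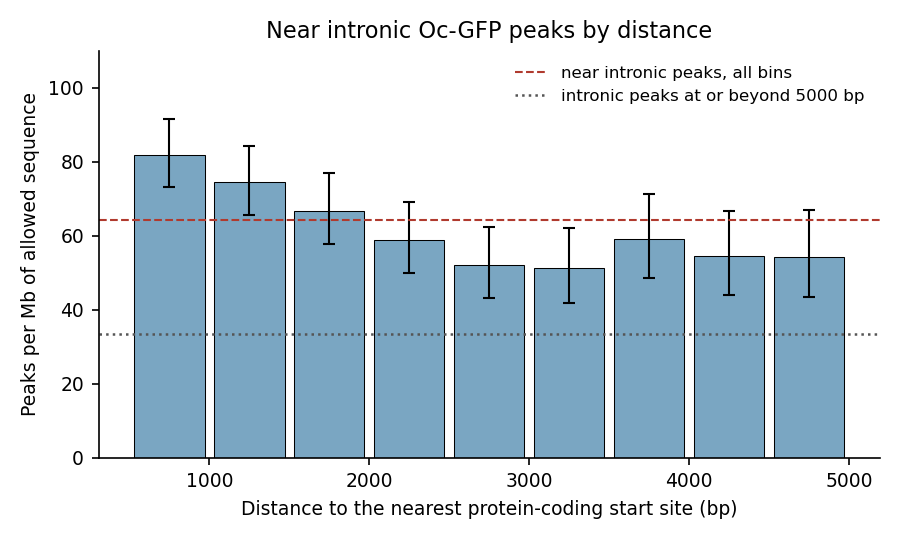
Near intronic peaks per Mb of sequence that meets the rule (y axis) in 500-bp bins of distance to the nearest protein-coding start site (x axis). Error bars are exact 95% Poisson intervals, the dashed line is the value over all bins (64.3) and the dotted line that of intronic peaks at or beyond 5000 bp (33.4); the bars fall from 81.9 to 52.0 by 2500 to 3000 bp.

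Most members were in the first intron of at least 1 transcript of the gene that holds them. This held for 1068 (75.2%, 72.9 to 77.4), against 58.7% of the allowed sequence sampled every 2000 bp. The intron lay in the 5′ UTR in every transcript for 548 members (38.6%, against 34.4% of allowed sequence) and within the coding region for 664 (46.8%, against 52.7%). For 191 this differed between transcripts, for 8 the intron lay in a 3′ UTR and for 9 in a noncoding gene. The shortest intron holding a member had a median length of 7640 bp, against 6299 bp for the allowed sequence. For 1192 members (83.9%, against 74.6%) the nearest coding start belonged to the gene that holds the peak. The nearest start lay upstream of the peak, in the sense of its gene, for 924 (65.1%, against 68.1%). A further start of the holding gene lay downstream of the summit for 740 (52.1%, 49.5 to 54.7, against 39.0%), so many of these introns separate alternative starts of 1 gene. One member lay in an annotated transposon copy.

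The nearest gene of a member often had an IDR peak at its own promoter as well. This was so for 677 members (47.7%, 45.1 to 50.3), against 28.0% of the allowed sequence, 44.6% of the intronic peaks at or beyond 5000 bp and 29.8% of the intergenic peaks under 5000 bp. Counted by gene, 373 of the 909 genes nearest to a member (41.0%) had a promoter peak, against 1681 of the 10451 coding genes that have allowed sequence (16.1%). With 1 start per gene the share of members was 27.7%, and among IDR peaks above the median signal it was 31.1%. The share of allowed sequence was not computed for either setting, so these values cannot be set against the 28.0%. The part of the number of starts per gene in the difference between members and allowed sequence was not tested.

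By chromosome arm, members numbered 60.5 per Mb of allowed sequence on 2L, 70.6 on 2R, 66.8 on 3L, 66.0 on 3R and 61.7 on X. The X held 279 members, 19.6% of all members and 15% of all IDR peaks, so that 31.8% of its IDR peaks were near intronic against 21.1 to 26.4% on the large autosomal arms. Chromosome 4 had 1 member, near ci, in 0.283 Mb, and Y had none. The sex of the embryos is unknown, and the densities of the 5 large arms lay close together.

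In all, 909 of the 10451 coding genes with allowed sequence were nearest to a member (8.70%), and 856 genes held one. A single member was assigned to 598 genes, 2 to 203 genes and 3 or more to 108 genes. The number went with the length of allowed sequence: genes with a member had a median of 4499 bp of allowed sequence against 634 bp over all 10451. With the genes ordered by allowed length and cut into 5 bins of about equal number, 0, 0.241, 2.29, 12.1 and 28.9% had a member. The density was 63.7 per Mb in the bin from 1158 to 3808 bp and 69.7 in the bin above it.

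The gene with most members was shn (FBgn0003396), which encodes Schnurri, a zinc finger partner of the Smad proteins in Dpp signalling. Its 10 near intronic peaks spread over 31.8 kb and 5 starts, and no promoter peak was assigned to it. Their signals ran from 147 to 855 with a median of 320. The strongest had 855 in the IDR list, 451 in replicate 2 and 400 in replicate 3, and 2 of the 10 held TAATCC. sick (FBgn0263873), a gene of the actin cytoskeleton, had 9 members over 103 kb, from 150 to 850. Tlk, CHES-1-like, Svil and ush had 8 each. CHES-1-like (FBgn0029504), a forkhead factor gene, packed its 8 into 14.8 kb, with signals from 185 to 953. Svil encodes the actin-binding protein Supervillin, and its strongest member had 511. dve, siz and RapGAP1 had 7 each, and Btk, Eip75B and apt 6 each. Close summits were counted separately, and Svil and Btk each had a pair of summits in the same deposited interval. Among all members, 92 (6.48%) lay under 400 bp from another IDR summit, against 7.02% of all IDR peaks.

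Signals within a gene differed widely. Of the 90 members of the 12 genes 8 held TAATCC (8.89%), near the 8.73% of all members. For Btk they ran from 165 to 1134, and the strongest of its 6 peaks had 579 in replicate 2 and 540 in replicate 3. For RapGAP1, a gene of a GTPase activator of Rap1, none of the 7 exceeded 284. The homeobox gene dve (FBgn0020307), which acts in the midgut and in photoreceptors, had TAATCC under 3 of its 7 peaks. The strongest of the 7 was one of these, with 698 in the IDR list, 356 in replicate 2 and 333 in replicate 3, 4893 bp from the start. No other gene of the 12 had more than 2 members with the core, and Tlk, CHES-1-like, Svil, siz, RapGAP1, Eip75B and apt had none.

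**Figure D5:**
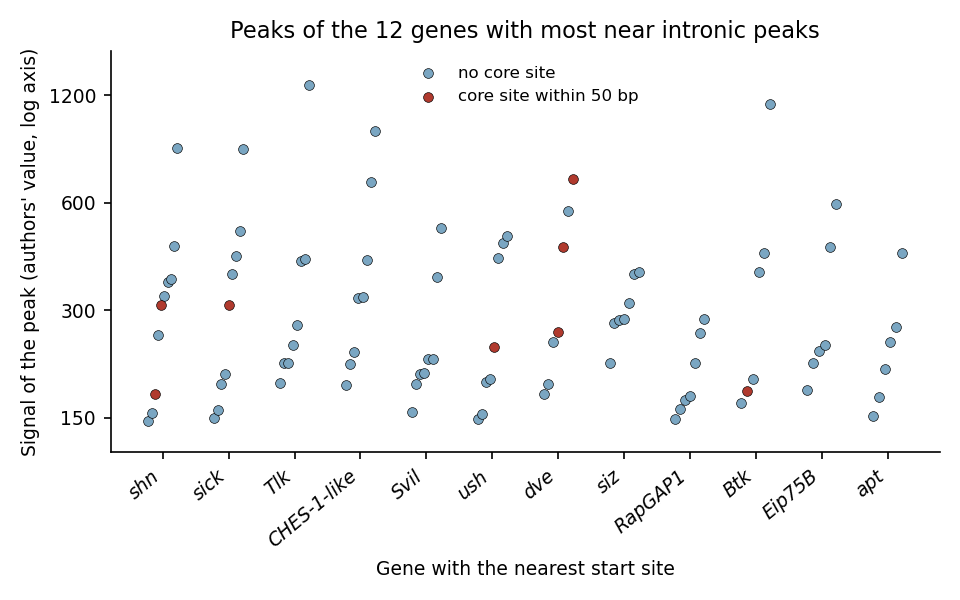
Signal of each near intronic peak (log axis, authors' unit) at the 12 genes with most of them, ordered by number of peaks; each point is a peak, red where TAATCC lies within 50 bp. Within most genes a single peak or a few stand well above the others, as at Tlk (1280) and Btk (1134).

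Where the holding gene was another than the nearest one (228 members), the nearest gene can lie within or beside a long neighbour. CG1677 held 11 members, the most of any gene, none of which was nearest to its own start. They were nearest to 4 other genes, and the highest had a signal of 513. Among these genes was brk (FBgn0024250), a repressor of Dpp targets, with 2 members, the higher at 286, 193 in replicate 2 and 89.0 in replicate 3. ush held 10 members, 8 nearest to its own starts and 2 nearest to cbt. The signal of the strongest of its own 8 was 485, against 2537 for the cbt peak in the same gene.

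oc itself (FBgn0004102), the gene of the tagged factor, was nearest to 5 members, none with TAATCC in the window. The strongest, 2185 bp downstream of the start, had 696 in the IDR list, 430 in replicate 2 and 276 in replicate 3. The others had 262, 147, 226 and 164. The extent of oc carried by the transgene is not in the labels, and its part in these signals was not tested.

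The genes of developmental pathways were looked up in lists chosen with earlier results of these data known, so their counts are a description. Listed genes have much allowed sequence: the median allowed sequence per gene was 3438 to 10774 bp in the 11 lists of developmental genes, against 634 bp over all. The share of all eligible genes with a member was 8.70% and the density 64.3 members per Mb. Densities in the smaller lists were 145 per Mb for head gap and anterior patterning genes, 96.2 for pair-rule and segment polarity genes and 91.1 for Hox and TALE genes. They were 31.5 for retinal determination, 66.9 for Notch, 69.1 for neuroblast, 86.3 for mesoderm and muscle, 85.2 for ecdysone response and 111 for ribosomal protein genes, each resting on 2 to 11 members. Of the 9 members behind the value for head gap and anterior patterning genes, 5 were those of oc, the gene of the tagged factor.

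Among the 34 listed genes that act in signalling by Wnt, Hedgehog, Dpp or the EGF receptor and have allowed sequence, 21 had a member (61.8%, 45.0 to 76.1), with 42 members in all, or 179 per Mb. Of IDR peaks above the median signal of the list, which are fewer, 10 of these genes had one. Among ligands, by nearest start, spi and dpp had a member each, of 210 and 201. Single members of Wnt2 (161), Wnt5 (151, not found in replicate 2, in an intron of Ggt-1) and hh (149) were weak. Members held by a listed gene but nearest to another gene were not counted. The first intron of Wnt4 held members of 578 and 206 that were nearest to CG31909. The listed gene arr held 3 such members, the highest with 334 (not found in replicate 3), and tkv held the Cyp4ac1 peak of 582. Among receptors, tkv had 4 members, the highest with 362 in the IDR list, 173 in replicate 2 and 177 in replicate 3. The Hedgehog receptor gene ptc had 1 member of 235, the Wnt receptor gene fz 2 with a highest signal of 166, and Egfr 1 of 161, whose summit was found in replicate 3 but not in replicate 2. Among transducers, Mad, the Smad gene of Dpp signalling, had a member of 718, with 417 in replicate 2 and 303 in replicate 3. S, which encodes Star, an aid to the transport of EGF receptor ligands, had one of 654 (328 and 340). Among inhibitors and feedback regulators, aos, nkd, brk, sog and sty had 2 members each, with highest signals of 963, 783, 286, 220 and 178. Without shn, aos and nkd, no gene of this list had a member above 718. TAATCC was under 8 of the 42 members (19.0%, 9.98 to 33.3), against 8.73% of all members. Of the 8, shn and nkd had 2 each, and the interval counts peaks of the same gene as separate.

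Of 29 genes of axon guidance and cell recognition, 10 had a member (34.5%, 19.9 to 52.7), at a density of 74.8 per Mb. Of their 16 members, 9 held TAATCC within 50 bp (56.3%, 33.2 to 76.9), against 8.73% of all members. Ten-m, Ten-a and Sema1a each had 2 members, all with the core. The interval counts peaks of the same gene as separate and does not cover the choice of the list. The midline repellent gene sli had 3 members, the strongest with 538 in the IDR list, 271 in replicate 2 and 256 in replicate 3. kirre, an adhesion gene of muscle fusion and the visual system, had 1 member of 507 (258 and 249).

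Among head gap and anterior patterning genes, 4 of 14 had a member: oc, knrl with a highest signal of 487, Rx with 293 and Gsc with 185. These include homeobox genes of the anterior (Rx, Gsc) and a nuclear-receptor-like gene of the head (knrl), and none of the 9 members of this list held TAATCC, too few to set against the 8.73% of all members. Among pair-rule and segment polarity genes 5 of 19 had a member, led by nkd, inv (500) and ptc, with nkd, ptc, ci and hh also counted in the signalling list. Among Hox and TALE homeobox genes 4 of 10 did, led by Antp (307), Abd-B (274, not found in replicate 2) and lab (236). Among 12 retinal determination genes eya was the nearest gene of 2 members (highest 346), and a pair of members in an intron of so were nearest to the start of CG11145 (the higher with 359 and a core). Among Notch pathway genes 3 of 14 had one: neur, a ligand-endocytosis gene (525), mam, a coactivator gene (392, not found in replicate 2), and numb, an inhibitor gene (229). Among neuroblast genes 4 of 18 did, led by brat with 1028 in the IDR list, 526 in replicate 2 and 507 in replicate 3, then grh (645) and sqz (171).

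Other tissues gave counts in the same range. Of 16 mesoderm and muscle genes 4 had a member, led by mbc (798), zfh1 (409) and Mef2 (302). Of 14 genes of trachea, gut and epidermis 5 did, led by rib (541), GATAd (523) and ush (485), at 153 members per Mb, of which 8 of 14 members were those of ush. Of 12 ecdysone response factor genes 5 did, led by Eip75B (597), EcR (244) and Hr4 (210), with TAATCC under 0 of their 11 members, too few to set against the 8.73% of all members. Of 42 cytosolic ribosomal protein genes with allowed sequence, whose median was 128.5 bp, RpLP2 and RpL37-1 had a member, in introns of Cdk4 and CG9095.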

How the data were processed

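ChIP-seq libraries of Oc-GFP embryos, biological replicates 2 and 3, were used as 4 deposited narrowPeak lists on dm6: 1 per replicate, 1 pooled (30000 peaks each) and the optimal IDR list. The deposited signal values are the authors' own, on a scale not given in the sources used here. The deposited q-values, on the −log10 scale, were not used to rank peaks. The deposited summit offset is an other kind of value, the distance in bases from the start of the interval. The aligner, peak caller, IDR threshold and depth are not given in the sources used here, so depth is unknown and precision rests on counts of peaks.

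Peaks were classed with the Ensembl 115 annotation (BDGP 6.54), using starts of every transcript and leaving out transposon genes. A replicate summit within 100 bp counted as shared. Words were counted on both strands in 101-bp windows and in flanks 500 bp away. The sequence that meets the rule was sampled every 200 bp for words and every 2000 bp for annotation. Each peak was assigned to the nearest coding start. Tables were made in Python 3.11.15 with pandas 2.3.3 and numpy 2.4.6, intervals with scipy 1.17.1 and plots with matplotlib 3.10.9. The classing of positions was checked on random positions, and the search for TAATCC and the replicate matching on planted data. Other steps were not checked in this way.

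The members, lists and rules were chosen with earlier results of these data known. Genes named were oc, those of the 20 strongest members, the 12 genes with most members, the 3 genes with the highest signal per list, the neighbours of each limit and the genes of printed sequences. The other members of the signalling list, Ten-a, Sema1a, Wnt4, CG31909, arr and Ggt-1 were named after their values were seen. The same holds for the widest replicate differences, the peaks in neither replicate, brk, so, the unprinted genes on 2R and the ribosomal genes. Dl and Hairless of the Notch list matched no symbol and were not used here. Alternatives changed the peak list, the rule, the match distance, the windows and the flanks.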

Additional observations from a re-analysis of the deposited data

How the results depend on the processing

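Of 103 comparisons of a result with an alternative, 72 stayed close (counts of peaks or genes within 1.5 times, shares within their counting interval, other values within the SD of the replicates or their interval), 31 moved and 0 reversed. The IDR peaks above the median signal of the list gave 753 members, 25.8% of that list, at 569 genes, with a median signal of 315, 34.1 per Mb, 96.8% in both replicates, a log2 ratio of TAATCC of 1.85, GC of 37.0% and 31.1% near a gene with a promoter peak. It holds fewer peaks by construction. A promoter distance of 1000 bp gave a member share of 18.3%, 59.7 per Mb and 59.5% near a promoter peak. With 1 start per gene these were 20.1% for the member share and 27.7% near a promoter peak, while 78.8% were in a first intron and 72.2% nearest to the holding gene. Transposon copies counted as genes, an alternative added after the data were seen, gave 68.0 per Mb. Matching replicate summits within 50 bp or 200 bp gave 78.9 and 98.5% in both replicates. Windows of 25 bp and 100 bp gave 4.65 and 12.8% with TAATCC and 5.42 and 15.4% with TAAGCC, and the wider windows gave a log2 ratio of TAATCC of 1.17 and GC of 39.5%. Lists drawn from a single replicate gave a median signal of 110 to 120 on the scale of that list, 90.8 to 91.3% in both replicates, GC of 38.3 to 39.1% and 46.9 to 51.5% near a promoter peak, the higher without replicate 2. Every peak of such a list matches its own replicate, so its share in both replicates is the share found in the other one. The count of signalling genes with a member was 10 among the peaks above the median and 16 to 21 otherwise. TAATCC was in 0 of the 20 strongest members except with a promoter distance of 1000 bp, where it was in 1. Leaving out the members at oc moved no result. No paired analysis was possible because there is 1 group. With depth unknown, no limit of detection can be given.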

Other observations

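Below the IDR list, the pooled list held 24156 further peaks, of which 6099 (25.2%) met the same positional rule, with signals from 34.5 to 146. The highest of these signals was 146.031 and the lowest signal of a member was 146.032, so signal separated the 6099 peaks from the members. TAATCC was within 50 bp of the summit in 310 of the 6099 (5.08%, 4.56 to 5.66) and in 3.57% of their flanks, a log2 ratio of 0.51. Their windows had a mean GC of 41.9%.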
